A study of Mus musculus with 48 samples.

Results

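Col14a1, the gene of the collagen XIV chain, lies on mouse chromosome 15, and 34 genes on either side of it are described here in mouse epidermis by bulk RNA sequencing. They are 34 of the 27179 gene rows of the deposited count table, were found there by Entrez ID, and span 50.65 to 59.66 Mb of chromosome 15 (GRCm38). The list was drawn up with an earlier comparison of these same libraries known, and at least some of its genes were chosen by their KO over WT fold change, so for the difference between the labels no p is given for any of the 34. Where one of them is said to be called in that contrast, this only describes where it fell in the fit over all genes and is no independent test of it. Each library was made from polyA RNA of a suspension of epidermal cells, taken from skin of mice 47 weeks old and labelled ColXIV KO or ColXIV WT. The groups were ColXIV KO at Zeitgeber time (ZT, hours after lights on) 0, 4, 8, 12, 16 and 20 and ColXIV WT at the same 6 times, with 4 biological replicates in each of the 12 groups and 48 libraries in all. The sources used here do not give the allele behind the KO label, the strain or the sex of the mice. Below, KO and WT libraries are named by their label alone.

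Collagen XIV is a fibril-associated collagen that fibroblasts deposit on collagen fibrils, and the epidermis itself is built of keratinocytes that divide in the basal layer and differentiate outwards. Genes that neighbour each other on a chromosome are inherited together, whatever their functions, and the 34 genes do not form a functional group. They include the cohesin subunit Rad21, the mTOR inhibitor Deptor, the hyaluronan synthase Has2, the heparan sulfate polymerase Ext1, subunits of Mediator, TFIID and eIF3, and factors of DNA replication. Hyaluronan and heparan sulfate are long sugar chains of the matrix around keratinocytes, and replication genes in skin are known for a daily cycle.

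The promoter sequences of Slc22a22 are shown because this gene had the largest difference between the labels among the 34. It encodes a member of the SLC22 family of organic ion transporters, known in mouse kidney as a prostaglandin transporter. RefSeq (GRCm38.p6) gives 2 promoters for it, and it was the 1 gene of the 34 matched in the promoter table. Each stretch holds 300 bases, of which 250 come before the start of transcription and 50 from it onwards, on the minus strand. The first is chr15:57477576-57477875 and the second chr15:57265112-57265411, with starts 212.5 kb apart. Capitals mark the matches to the motifs searched.
Slc22a22 promoter 1: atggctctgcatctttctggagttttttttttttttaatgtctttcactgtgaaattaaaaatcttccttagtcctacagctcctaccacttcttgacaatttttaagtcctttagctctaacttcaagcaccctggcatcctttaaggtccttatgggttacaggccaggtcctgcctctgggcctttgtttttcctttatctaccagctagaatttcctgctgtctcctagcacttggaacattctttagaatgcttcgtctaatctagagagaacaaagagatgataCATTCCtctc
Slc22a22 promoter 2: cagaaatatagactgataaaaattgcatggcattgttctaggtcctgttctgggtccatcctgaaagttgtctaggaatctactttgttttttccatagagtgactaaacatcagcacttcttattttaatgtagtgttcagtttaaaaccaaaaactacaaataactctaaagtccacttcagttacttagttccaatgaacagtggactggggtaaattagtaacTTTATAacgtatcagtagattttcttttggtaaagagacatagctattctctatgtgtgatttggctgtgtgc
The motifs searched, on both strands, were the E-box CACGTG of clock factors, the TEAD site CATTCC, the D-box TTATGTAA, the TATA box TATAAA and the AP-1 site TGANTCA. Promoter 1 held the TEAD letters, at bases 291 to 296, and promoter 2 the TATA letters on the reverse strand, at bases 228 to 233. Of 32851 promoters of this length, 14.7% held CATTCC and 13.6% held TATAAA, so neither match is rare. The E-box letters were in 7.15% of promoters, the D-box letters in 0.938% and the AP-1 letters in 7.81%, and none of these was in either Slc22a22 promoter.

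Library totals ran from 37.0 to 42.4 M counts in KO libraries and from 35.6 to 43.7 M in WT libraries. Col14a1, measured first as a check of the labels, went against them. It averaged 61.3 ± 8.41 CPM in KO libraries and 1.23 ± 0.939 CPM in WT libraries (SD, n = 24 each), where CPM is the count scaled to the library's TMM-adjusted total. Its log2 fold change, KO over WT, was 5.69 ± 0.19 (SE), and every direction below is therefore one between labels. Xist was high (1317 CPM or more) in 9 KO and 15 WT libraries, and low (4.25 CPM or less) in 15 KO and 9 WT libraries. In 3 WT libraries, replicates 3 and 4 at ZT4 and replicate 2 at ZT16, the chromosome 16 pseudogene Gm5481 was at 9.64 to 14.1 CPM, against 0 to 0.216 CPM in the other 21 WT libraries and 9.78 to 28.4 CPM in KO libraries. The 10 keratinocyte markers, all detected, summed to 36731 to 53230 CPM in KO libraries and 32711 to 51918 CPM in WT libraries. The 10 fibroblast and dermis markers, also all detected, summed to 296 to 548 CPM in KO libraries and 298 to 647 CPM in WT libraries, while 7 endothelial markers stayed below 4 CPM in sum.

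All 34 genes passed the filter on low counts. Of the 34, 5 were called between the labels over the 6 times together. Slc22a22, Has2 and Mal2 were lower in KO libraries, and Mtss1 and Washc5 were higher. These 5 are 14.7% of the 34, beside 0.34% of all 17068 genes tested (0.193% higher and 0.146% lower), with a call at an adjusted p under 0.05 in edgeR's quasi-likelihood test. Since the list was made with this contrast known, nothing is read from that share or from the calls at single times. The median log2 fold change of the 34 was -0.0096, beside -0.0016 over all genes tested, and the median size of change was 0.042, beside 0.036. In bulk samples fewer cells of a type and less RNA per cell cannot be told apart.

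Slc22a22 (chromosome 15, 57243767 to 57477625) was close to undetected in KO libraries. Its counts there were 0 in 13 libraries, 1 in 6, 2 in 4 and 3 in 1, which is 17 counts in all, against 3 to 23 counts per WT library and 273 in all. The level in KO libraries ran from 0 to 0.0726 CPM with a median of 0, and in WT libraries from 0.0727 to 0.557 CPM with a median of 0.254. The ranges met, and in counts they tied. The highest KO library (replicate 3 at ZT4) and the lowest WT library (replicate 4 at ZT16) held 3 counts each. Only library scaling parts them, at 0.07261 and 0.07266 CPM. Of all 17068 genes, only Slc22a22 and Col14a1 had KO and WT libraries that did not overlap in CPM. That is 0.0117% in all, or 0.00586% in either direction. Slc22a22 passed the filter on low counts through its WT libraries, as no KO library held more than 3 counts. It was also listed with this contrast known, so the separation only describes it and is no support. The ratio of the pooled counts per total, KO over WT, was 0.0626, with an exact 95% interval of 0.036 to 0.102 that covers counting error only. The fitted log2 fold change was -3.92 ± 0.32 (SE), and with so few counts its size depends on the model. At single times the 4 KO libraries held 3, 5, 5, 2, 1 and 1 counts from ZT0 to ZT20, and the 4 WT libraries 49, 56, 50, 35, 28 and 55. Over all libraries it averaged 0.061 CPM per kb of exon, and of the 34 only Samd12 had a lower level per length.

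Has2 (56665627 to 56694546) makes hyaluronan at the cell surface. Its KO level was 0.499 of the WT level, with 0.351 to 1.76 CPM and a median of 1.02 CPM, against 0.865 to 4.41 CPM and a median of 1.94 CPM in WT libraries. Of the KO libraries 10 lay below every WT library, and of the WT libraries 14 lay above every KO library. The means were 0.973 ± 0.325 CPM in KO libraries and 1.95 ± 0.756 CPM in WT libraries (SD, n = 24 each), and the log2 fold change was -1.0 ± 0.15 (SE). An antisense RNA, Has2os, overlaps Has2 exons by 182 bases on the other strand, and it had 0.135 CPM in KO libraries and 0.205 CPM in WT libraries. The library kit keeps the strand, but whether the counting used it is not given in the sources, so reads of overlapping genes on opposite strands cannot be told apart.

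Mal2 (54571366 to 54602846), a membrane protein of vesicles that carry cargo across polarised epithelial cells, ran from 26.8 to 44.0 CPM with a median of 37.3 CPM in KO libraries, against 36.5 to 66.0 CPM with a median of 49.5 CPM in WT libraries. The ranges overlapped in part, with 11 KO libraries below all WT libraries and 20 WT libraries above all KO libraries. The log2 fold change was -0.46 ± 0.06 (SE), a fold of 0.725. It was -0.32 as a ratio of means within the libraries with high Xist and -0.63 within those with low Xist.

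Mtss1 (58941234 to 59083956), which bends membranes through its I-BAR domain and binds actin, was the clearest of the genes that were higher under the KO label. It ran from 44.6 to 61.9 CPM with a median of 54.6 CPM in KO libraries, against 34.2 to 52.2 CPM with a median of 42.3 CPM in WT libraries. Of the KO libraries 17 lay above every WT library, and 17 WT libraries lay below every KO library. Its log2 fold change was 0.37 ± 0.04 (SE), a fold of 1.29.

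Washc5 (59331863 to 59374194) encodes strumpellin, a subunit of the WASH complex that nucleates actin on endosomes. Its difference was small and even: 35.3 to 45.2 CPM with a median of 39.4 CPM in KO libraries, against 32.1 to 40.7 CPM with a median of 36.4 CPM in WT libraries. Most libraries of the labels overlapped, with 7 KO libraries above all WT libraries. The log2 fold change was 0.13 ± 0.02 (SE), a fold of 1.10. The 3 WT libraries with high Gm5481 lay within the other WT libraries for each of these 5 genes, at 0.212 to 0.407 CPM for Slc22a22, 1.49 to 2.06 CPM for Has2, 49.7 to 63.2 CPM for Mal2, 37.3 to 43.4 CPM for Mtss1 and 35.5 to 38.9 CPM for Washc5. Without them the same 5 genes were called.

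**Figure D1:**
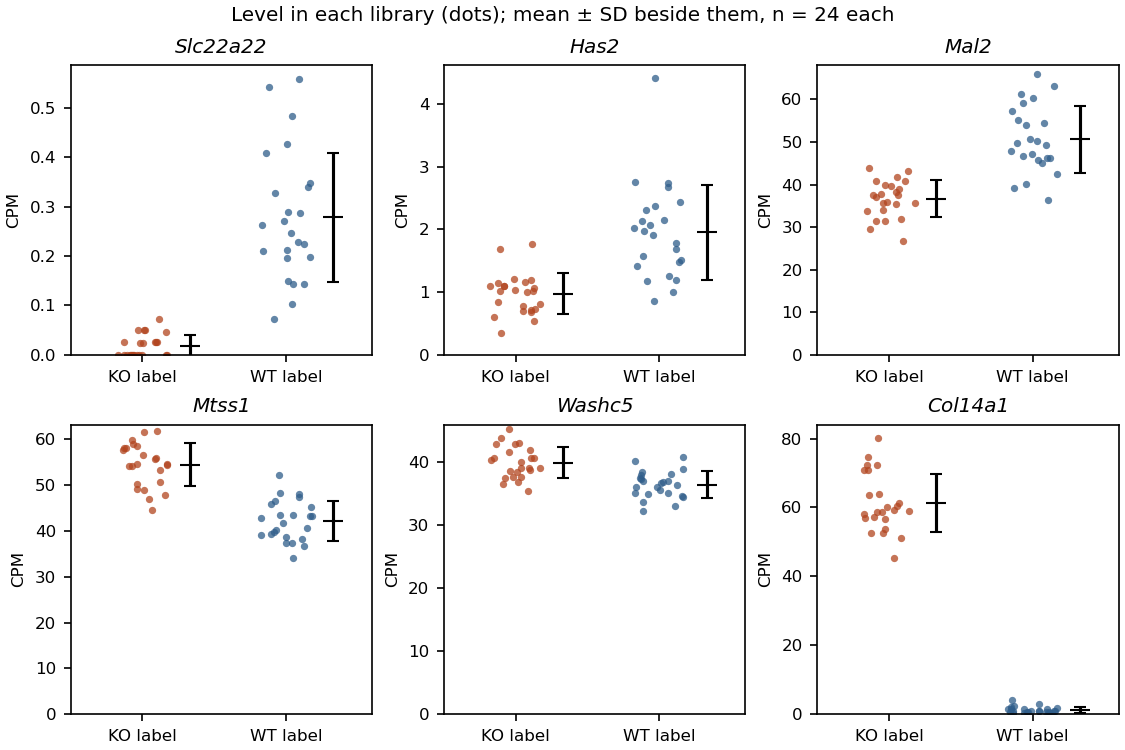
Level of the 5 called genes and of Col14a1 in each library (CPM, linear axis from 0), KO label left of WT label, with 24 dots a label and the mean ± SD beside them. Col14a1 shows no overlap between the labels. Slc22a22, in the opposite direction, shows none in CPM, but its highest KO and lowest WT library held 3 counts each. Washc5 shows the most overlap of the 5 called genes.

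Of the 7 genes of transcription and chromatin, none was called between the labels (Med30 was called without replicate 3 of KO at ZT8). Trps1, a GATA-type repressor active in hair follicles, averaged 10.1 ± 2.34 CPM in KO libraries and 10.7 ± 1.82 CPM in WT libraries. Rad21, the cohesin subunit that closes the ring, averaged 141 ± 11.8 CPM in KO libraries and 138 ± 9.76 CPM in WT libraries. Taf2 of TFIID averaged 38.8 ± 1.94 CPM in KO libraries and 38.1 ± 1.95 CPM in WT libraries. All 3 had log2 fold changes between -0.08 and 0.03. Med30, a Mediator subunit, had the largest fold change of this group, with 16.2 ± 1.31 CPM in KO libraries and 14.8 ± 1.48 CPM in WT libraries (log2 fold change 0.13 ± 0.04, SE), and 6 KO libraries above all WT libraries. With terms for sex-linked expression its value was 0.08. The zinc finger and homeobox repressors hardly moved. Zhx1 averaged 55.3 ± 3.49 CPM in KO libraries and 56.3 ± 4.89 CPM in WT libraries. Another gene, Gm29394, overlaps Zhx1 exons by 662 bases on the same strand, so the count of Zhx1 is uncertain. Zhx2 averaged 16.2 ± 2.20 CPM in KO libraries and 16.3 ± 2.58 CPM in WT libraries. The bromodomain ATPase Atad2, a coactivator of E2F, averaged 38.8 ± 6.67 CPM in KO libraries and 39.1 ± 8.51 CPM in WT libraries and changed over the day.

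The genes of protein synthesis were also near equal. Eif3h, a subunit of the initiation factor eIF3, had the highest level of the 34 per length of exon, at 149 CPM per kb. Its mean was 242 ± 26.9 CPM in KO libraries and 240 ± 32.4 CPM in WT libraries. A copy, AC122253.2, shares 1061 bases with Eif3h at 96.3% identity, so its count is uncertain. Utp23, which acts in ribosomal RNA processing, averaged 7.68 ± 0.966 CPM in KO libraries and 7.76 ± 0.853 CPM in WT libraries. Mrpl13, of the large mitochondrial ribosomal subunit, is the gene nearest to Col14a1 on the higher-coordinate side, 13.3 kb away. It ran from 15.9 to 21.5 CPM with a median of 19.0 CPM in KO libraries, against 16.4 to 24.5 CPM with a median of 19.5 CPM in WT libraries, and the ranges overlapped almost fully (log2 fold change -0.04 ± 0.04, SE). Trmt12, an enzyme of tRNA modification, averaged 6.24 ± 0.653 CPM in KO libraries and 6.17 ± 0.770 CPM in WT libraries.

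Replication and genome maintenance genes showed no call either. Dscc1, of the alternative clamp loader that supports sister chromatid cohesion, averaged 2.10 ± 0.767 CPM in KO libraries and 2.13 ± 0.744 CPM in WT libraries. Mtbp, an origin-firing factor first known as a partner of Mdm2, averaged 10.3 ± 0.976 CPM in KO libraries and 10.3 ± 1.09 CPM in WT libraries. Nsmce2, the SUMO ligase of the SMC5/6 complex, averaged 13.6 ± 1.35 CPM in KO libraries and 14.0 ± 1.5 CPM in WT libraries. Their log2 fold changes lay between -0.04 and -0.0022. Tbc1d31, a centrosomal protein, averaged 9.76 ± 1.6 CPM in KO libraries and 10.3 ± 1.63 CPM in WT libraries, and Tatdn1, a predicted nuclease, averaged 7.40 ± 0.547 CPM in KO libraries and 7.59 ± 0.684 CPM in WT libraries.

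Of the genes of the matrix and of secreted factors, Has2 alone was called. Tnfrsf11b, osteoprotegerin, is the soluble decoy receptor of RANKL. It ran from 2.92 to 9.26 CPM with a median of 4.31 CPM in KO libraries, against 4.05 to 11.6 CPM with a median of 6.44 CPM in WT libraries. Its log2 fold change, -0.49 ± 0.13 (SE), was as large as that of Mal2 but with a wider error, and 9 KO libraries lay below all WT libraries. DESeq2 called it, as did edgeR with the replicate number as a block. It was also called in edgeR without replicate 1 of KO at ZT8, replicate 2 of KO at ZT12 or replicate 1 of KO at ZT16. Ext1 averaged 44.1 ± 3.60 CPM in KO libraries and 43.0 ± 3.20 CPM in WT libraries, with almost complete overlap. Enpp2, autotaxin, which makes lysophosphatidic acid, was low and scattered at 1.29 ± 0.842 CPM in KO libraries and 1.21 ± 0.734 CPM in WT libraries. Its log2 fold change of 0.10 ± 0.25 (SE) became -0.13 with a term for fibroblast and dermis markers and -0.19 with terms for sex-linked expression, so no direction can be given.

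Genes of membranes and trafficking other than Slc22a22, Mal2, Mtss1 and Washc5 differed little. Derl1, of the channel that removes misfolded proteins from the endoplasmic reticulum, averaged 79.7 ± 3.80 CPM in KO libraries and 80.0 ± 4.05 CPM in WT libraries. A copy, Gm35638, shares 652 bases with it at 95.4% identity, so its count is uncertain. Rnf139, a ubiquitin ligase of the same membrane, averaged 36.5 ± 2.76 CPM in KO libraries and 36.2 ± 2.75 CPM in WT libraries. It shares 1140 bases of exon with Tatdn1 on the opposite strand. Fam91a1, which acts in capture of vesicles at the Golgi, averaged 136 ± 5.43 CPM in KO libraries and 133 ± 7.56 CPM in WT libraries. Tmem65, a mitochondrial inner membrane protein, averaged 212 ± 17.1 CPM in KO libraries and 202 ± 19.2 CPM in WT libraries, and Sntb1, a syntrophin of the dystrophin complex, averaged 28.7 ± 2.71 CPM in KO libraries and 27.5 ± 3.22 CPM in WT libraries. The log2 fold changes of these 5 genes lay between -0.0041 and 0.07.

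Signalling and ubiquitin genes held several lower values that were not called. Deptor, which binds and inhibits mTOR, is the nearest gene on the lower-coordinate side, 48.4 kb from Col14a1. It ran from 6.58 to 21.5 CPM with a median of 9.50 CPM in KO libraries, against 7.61 to 22.5 CPM with a median of 12.3 CPM in WT libraries, and the ranges overlapped almost fully. Its log2 fold change was -0.26 ± 0.12 (SE) and became -0.05 ± 0.05 with terms for sex-linked expression. Fam83a, of a family that anchors casein kinase, averaged 3.67 ± 1.00 CPM in KO libraries and 4.37 ± 0.887 CPM in WT libraries (-0.25 ± 0.10, SE). Fbxo32, the atrogin ubiquitin ligase of muscle atrophy, averaged 127 ± 25.2 CPM in KO libraries and 140 ± 32.3 CPM in WT libraries (-0.14 ± 0.08, SE), a value of -0.02 with terms for sex-linked expression. Trib1, a pseudokinase that brings the ligase Cop1 to C/EBP factors, averaged 38.8 ± 7.49 CPM in KO libraries and 40.2 ± 9.90 CPM in WT libraries. Samd12, a sterile alpha motif protein, was the lowest of the 34 per length at 0.034 CPM per kb, with 0.271 ± 0.0844 CPM in KO libraries and 0.360 ± 0.145 CPM in WT libraries (-0.35 ± 0.14, SE).

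By position, the called genes were not those nearest to Col14a1. Of the 34 genes, 13 lie on the lower-coordinate side, up to 4.42 Mb away, and 21 on the higher side, up to 4.13 Mb away. Mal2 was called at 0.705 Mb on the lower side, and Has2 at 1.14 Mb, Slc22a22 at 1.72 Mb, Mtss1 at 3.42 Mb and Washc5 at 3.81 Mb on the higher side. Between Mal2 and Has2 stand Enpp2, Taf2, Dscc1, Deptor, Mrpl13, Mtbp and Sntb1, none of them called. Of the 34, 22 had a log2 fold change within 0.1 of 0, and 20 were negative and 14 positive. The other 8 genes tested in the span, without Col14a1, held no call in edgeR and 1 in DESeq2. In edgeR 4 of them had an unadjusted p under 0.05, beside 6.9% of all genes tested. The largest fold change among them was that of Has2os, -0.65 ± 0.25 (SE), and 9130401M01Rik had the smallest adjusted p, 0.102 in edgeR (log2 fold change -0.12 ± 0.03, SE). On the rest of chromosome 15, 31 of 613 genes were called (5.06%), beside 14 of 15417 placed genes on other chromosomes (0.0908%). Along the chromosome the call before Mal2 was Nudcd1 at 44.4 Mb, and the call after Washc5 was Ptp4a3 at 73.7 Mb. Alleles of this stretch that are inherited with the labelled locus and the labelled locus itself cannot be told apart in this design.

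**Figure D2:**
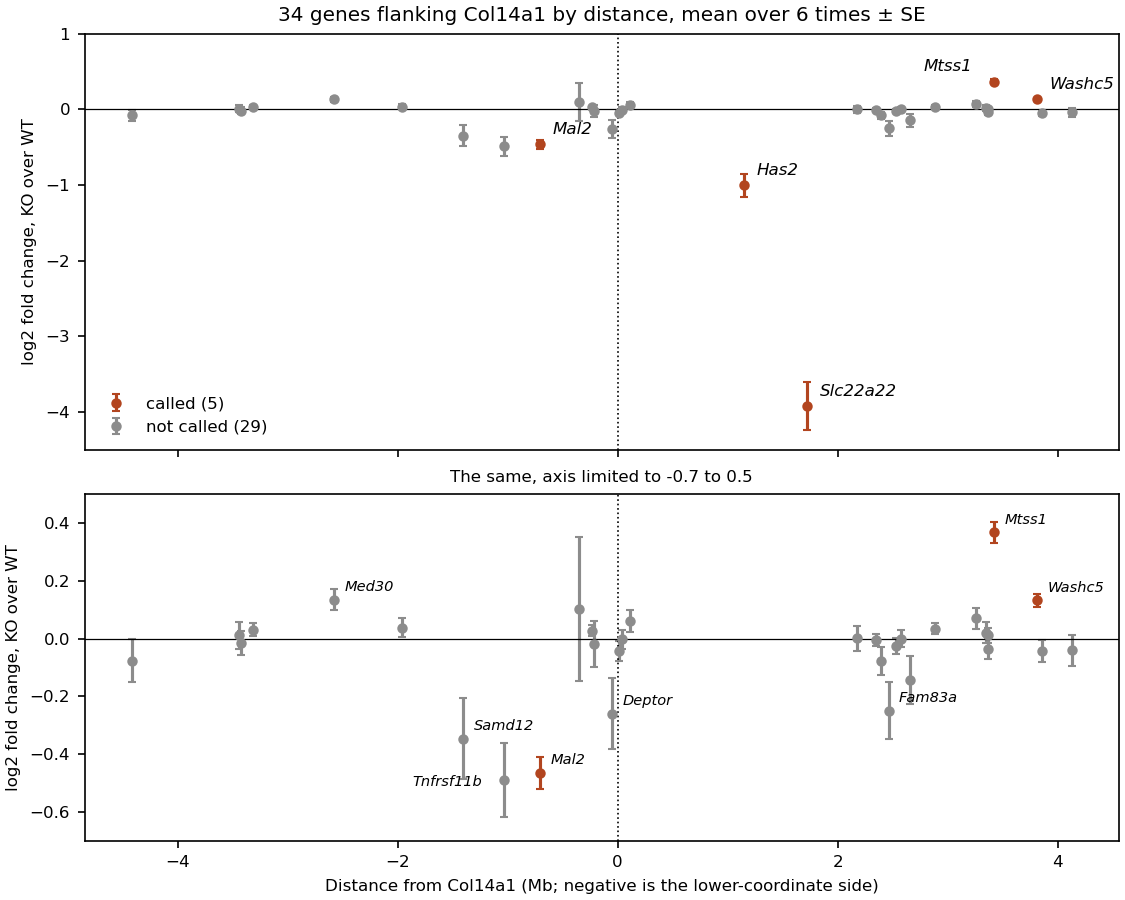
Log2 fold change, KO over WT, of the 34 genes (points, ± SE) against distance from Col14a1 in Mb, with negative distances on the lower-coordinate side; the lower panel repeats the upper with a narrower axis. The 5 called genes (red) stand among genes that were not called. Has2 and Slc22a22 are next to each other among the 34, as are Mtss1 and Washc5. Of the genes not called, Tnfrsf11b (-0.49) and Samd12 (-0.35) lay farthest from 0. Deptor at 48.4 kb and Mrpl13 at 13.3 kb were not called.

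Calls at single times, with 4 libraries a label, come from the contrast by which the list was made and are description only. Slc22a22 was called at ZT0, ZT4, ZT8, ZT16 and ZT20, Mtss1 at ZT4 and Mal2 at ZT16. From ZT0 to ZT20 that is 1, 2, 1, 0, 2 and 1 of the 34. Among all genes the shares called at these times, in the same order, were 0.0527%, 0.0527%, 0.0762%, 0.0234%, 0.129% and 0.0586%. At ZT12, 5 of the 34 and 845 of all 17068 genes (4.95%) had an unadjusted p under 0.05 in edgeR. As with the calls, nothing is read from that count. DESeq2 and limma-voom also called 0 of the 34 at ZT12. Slc22a22 was called there with terms for sex-linked expression, with a term for fibroblast and dermis markers and without replicate 3 of WT at ZT8. The 7 calls became 3 without the 3 WT libraries with high Gm5481 and 10 with terms for sex-linked expression. When each library was left out in turn, the calls of Slc22a22 at ZT0, ZT4, ZT8 and ZT16, of Mtss1 at ZT4 and of Mal2 at ZT16 each ended in 3 to 7 of 48 fits, and that of Slc22a22 at ZT20 in 0. All 5 genes called over the 6 times together kept their sign at each time. So did Med30, Tnfrsf11b, Deptor and Fam83a, which were not called. The log2 fold change of Mal2 ran from -0.34 at ZT12 to -0.66 at ZT16, that of Has2 from -0.72 at ZT12 to -1.32 at ZT20, that of Mtss1 from 0.26 at ZT0 to 0.46 at ZT4 and that of Washc5 from 0.10 at ZT0 to 0.17 at ZT4. The Has2 value at ZT20 rested on replicate 4 of WT, at 4.41 CPM beside 0.865 to 2.01 CPM in the other 3 WT libraries, and was -0.68 without it. Tnfrsf11b ran from -0.03 at ZT12 to -0.90 at ZT16, with an SE of 0.31 to 0.32 at each time, and its ZT12 value was 0.16 without replicate 4 of KO at that time.

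**Figure D3:**
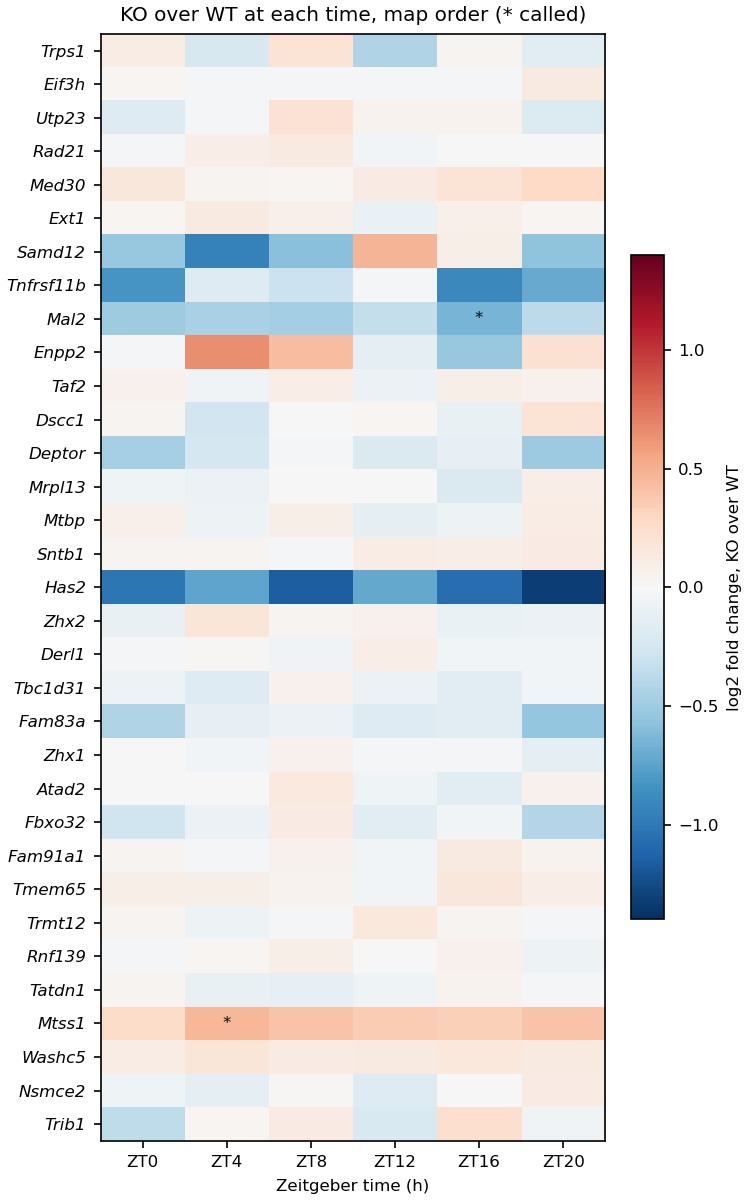
Log2 fold change, KO over WT, at each Zeitgeber time (columns) for 33 of the genes in map order (rows), red for higher and blue for lower in KO libraries, with stars on calls; Slc22a22 is left out because its KO counts were 1 to 5 a time. The rows of Mal2 and Has2 are blue and those of Mtss1 and Washc5 red at all 6 times. Those of Med30, Tnfrsf11b, Deptor and Fam83a, which were not called over the 6 times together, also keep their colour. Samd12 and Enpp2 change colour between times.

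The difference between the labels was then tested for change with time. In edgeR's quasi-likelihood F test, 0 of the 34 and 0 of 17068 genes passed (0%), with 2 of the 34 and 1041 of all at an unadjusted p under 0.05. DESeq2 called 26 of all genes and limma-voom 0, and neither called any of the 34. The smallest p of the 34 was that of Taf2, with an adjusted p of 0.779 in edgeR. Taf2 averaged 41.6 ± 1.11 CPM in KO libraries and 39.9 ± 2.18 CPM in WT libraries at ZT0, and 37.8 ± 0.937 CPM in KO libraries and 39.99 ± 1.08 CPM in WT libraries at ZT12. A difference in the 24 h rhythm was likewise not called for any of the 34, nor for any gene (0%), with 2 of the 34 and 395 of all at an unadjusted p under 0.05 and 0 calls in DESeq2 and limma-voom. Samd12 had the smallest p, with an adjusted p of 1.00 in edgeR. Its fitted amplitude was 0.09 ± 0.14 in KO libraries and 0.53 ± 0.14 in WT libraries (log2, SE), from counts of 6 to 18 per KO library and 5 to 29 per WT library.

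Time of day, averaged over the labels, changed 17 of the 34 genes (50%), beside 45% of all genes tested (edgeR's quasi-likelihood F test, adjusted p under 0.05). That share is close to the background. The 24 h cosine term was called for 12 of the 34 (35.3%), beside 26.6% of all genes. Within the labels alone the rhythm was called for 5 of the 34 in KO libraries, beside 12.2% of all genes, and for 6 in WT libraries, beside 11.6%. The tests of time do not use the contrast between the labels by which the list was made. The clearest were genes of the replicating cell. Atad2 averaged 29.01 ± 2.10 CPM at ZT4 and 48.1 ± 4.50 CPM at ZT16 (SD, n = 8 libraries a time), with a fitted peak at 15.3 h, an amplitude of 0.36 ± 0.02 (log2 from mean to peak, SE) and an adjusted p of 8.17e-15 for time in edgeR. Dscc1 averaged 1.32 ± 0.213 CPM at ZT0 and 3.02 ± 0.392 CPM at ZT12, with a peak at 13.5 h and the largest amplitude of the called genes, 0.64 ± 0.06 (adjusted p = 1.53e-09 in edgeR). Under either label both were higher at ZT12 and ZT16 than at ZT0 and ZT4. The amplitude of Atad2 was 0.32 ± 0.03 in KO libraries and 0.39 ± 0.03 in WT libraries, and that of Dscc1 was 0.66 ± 0.08 in KO libraries and 0.63 ± 0.08 in WT libraries.

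Trib1, Zhx2 and Deptor peaked within a few hours of these genes, and Rad21 did not. Trib1 averaged 30.8 ± 4.37 CPM at ZT4 and 52.3 ± 9.68 CPM at ZT12 (peak 12.7 h, amplitude 0.23 ± 0.05, adjusted p = 1.75e-06 for time in edgeR). Zhx2 averaged 14.3 ± 1.88 CPM at ZT4 and 18.5 ± 2.18 CPM at ZT16 (peak 16.1 h, amplitude 0.21 ± 0.03, adjusted p = 2.42e-05). Rad21 was highest at ZT4 with 153 ± 8.10 CPM and lowest at ZT12 with 131 ± 4.22 CPM (peak 2.85 h, amplitude 0.09 ± 0.02, adjusted p = 6.44e-05). The cohesin subunit was thus lowest at ZT12, where Atad2 and Dscc1 were high. Tbc1d31 stood out at ZT0, with 12.4 ± 1.01 CPM against 8.79 to 10.4 CPM at the other times. Deptor had a called rhythm with a peak at 14.3 h and an amplitude of 0.32 ± 0.08, although its test over the 6 times did not pass. Sntb1 was highest at ZT8, with 31.5 ± 2.07 CPM, and Washc5 at ZT4, with 40.3 ± 2.97 CPM. Fam91a1 and Tatdn1 passed for rhythm and not for the 6 times, with amplitudes of 0.05 and 0.08, and these calls ended with no filter beyond 1 read and in 5 and 9 of the 48 fits that left out 1 library.

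Of the 17 genes that changed with time, 8 had no called 24 h rhythm, namely Eif3h, Utp23, Taf2, Mrpl13, Zhx1, Trmt12, Rnf139 and Mtss1. In Eif3h, Mrpl13, Zhx1, Trmt12 and Rnf139 the highest means over both labels were at ZT4 and ZT16. For Mrpl13 this did not hold within KO libraries, where the mean was 18.7 CPM at ZT16 and 19.7 CPM at ZT8. The WT mean of Mrpl13 at ZT16 was 21.6 CPM. Trmt12 averaged 6.95 ± 0.593 CPM at ZT4 and 6.88 ± 0.178 CPM at ZT16, against 5.58 to 6.17 CPM at the other times. Rnf139 averaged 39.1 ± 3.53 CPM at ZT4 and 38.6 ± 1.78 CPM at ZT16, against 34.3 to 35.7 CPM. ZT4 and ZT16 are also the times of the 3 WT libraries with high Gm5481. Without these libraries Eif3h and Utp23 were no longer called for time, and Mrpl13, Zhx1, Trmt12 and Rnf139 were still called. The call of Eif3h also ended with a term for fibroblast and dermis markers, and that of Utp23 in limma-voom, with no filter beyond 1 read and in 28 of the 48 fits that left out 1 library. Leaving out replicate 4 of WT at ZT16 ended the call of Eif3h, and leaving out replicate 2 or 4 of KO at ZT0 that of Taf2. For Mtss1 the call ended without replicate 2 of KO at ZT0, replicate 4 of KO at ZT20 or replicate 4 of WT at ZT0. It was highest at ZT0, with 52.4 ± 5.87 CPM, and lowest at ZT20, with 45.1 ± 7.67 CPM, over both labels together. Mrpl13 and Mtbp, which lie head to head and share 330 bases of exon, ran opposite: Mrpl13 averaged 21.1 ± 1.17 CPM at ZT4 and 18.03 ± 1.25 CPM at ZT12, and Mtbp averaged 9.25 ± 0.526 CPM at ZT4 and 11.4 ± 0.842 CPM at ZT12. Has2, Mal2 and Slc22a22, the genes lower under the KO label, were called neither for time nor for rhythm.

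**Figure D4:**
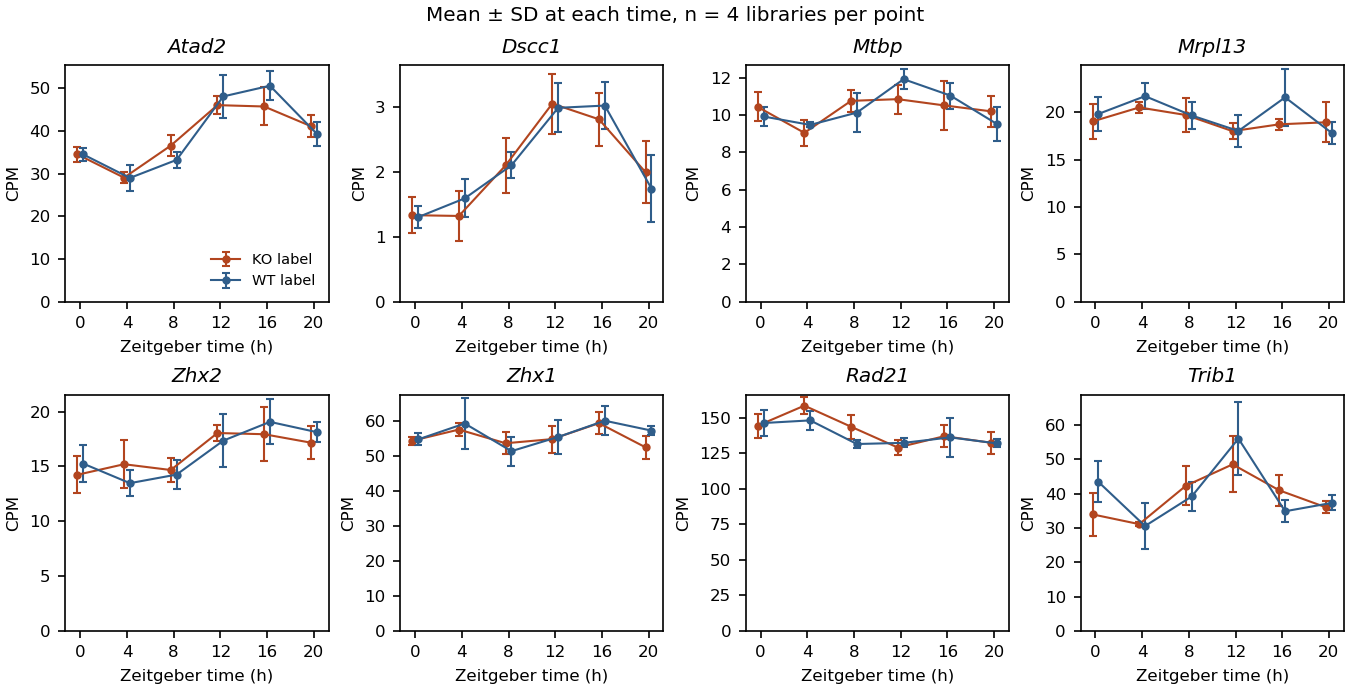
Mean level ± SD (CPM, linear axis from 0) at each Zeitgeber time for 8 genes, KO label in red and WT label in blue, with n = 4 libraries a point. Atad2, Dscc1, Zhx2 and Trib1 were highest at ZT12 or ZT16 and Rad21 at ZT4. The lines of Trib1 cross: KO means were below WT means at ZT0 (33.9 against 43.4 CPM) and ZT12 (48.5 against 56.0 CPM). At ZT16 the KO mean of Trib1 was above (40.9 against 34.8 CPM). No change of the difference between the labels with time was called.

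Each gene with known partners was then set beside them. The 205 partner genes tested, from 18 lists, held 0 calls between the labels in edgeR, DESeq2 and limma-voom. In edgeR 13 of them had an unadjusted p under 0.05, beside 6.9% of all genes tested. Their fold changes were positive for 89 and negative for 116, with a median log2 value of -0.0055. For the hyaluronan partners of Has2, 0 of 10 were called. Their most abundant gene, the hyaluronan receptor Cd44, averaged 215 ± 30.0 CPM in KO libraries and 241 ± 30.5 CPM in WT libraries (log2 fold change -0.16 ± 0.05, SE), and the other synthases had 0.262 CPM for Has1 and 5.14 CPM for Has3 in KO libraries, against 0.314 CPM for Has1 and 5.49 CPM for Has3 in WT libraries. For Washc5, the 4 other WASH subunits Washc1, Washc2, Washc3 and Washc4 had log2 fold changes from -0.01 to 0.02, and the most abundant partner, the capping protein Capzb, had -0.01 ± 0.03 (SE). For Mtss1, the paralogue Mtss2 had 0.01 and the abundant actin-binding partner Cttn 0.01 ± 0.03. For Mal2, the MAL family gene Mall had 0.01 and the abundant Cmtm6 0.06 ± 0.04. None of the partners of the called genes passed the test with all 48 libraries, and Cd44 passed without replicate 1 of KO at ZT4 (log2 fold change -0.20, adjusted p = 0.0197 in edgeR). The mTOR gene Rictor, beside Deptor, averaged 105 ± 7.11 CPM in KO libraries and 102 ± 11.0 CPM in WT libraries.

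The most abundant partners of the remaining genes differed as little between the labels. Over all 205 partners the log2 fold changes ran wider, from -0.675 to 0.315, with none called. Log2 fold changes (± SE) were -0.02 ± 0.02 for the cohesin loader Nipbl, -0.03 ± 0.02 for Eif3a, 0.04 ± 0.03 for Med14, 0.04 ± 0.02 for Taf1 and 0.05 ± 0.04 for the heparan sulfate enzyme Ndst1. They were 0.09 ± 0.05 for the lipid phosphatase Plpp3, 0.05 ± 0.02 for Traf6, -0.0040 ± 0.03 for Vcp, -0.04 ± 0.03 for Smc6 and -0.03 ± 0.03 for Topbp1. They were -0.08 ± 0.04 for Cebpa, -0.01 ± 0.03 for Skp1 and -0.02 ± 0.02 for Mrpl24, and 0.0039 ± 0.06 for the clock gene Tef. With terms for sex-linked expression 2 partners were called, Eif3e (-0.17) and Traf6 (0.08).

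For time of day, 111 of the 205 partners were called (54.1%), beside 45% of all genes. The replication partners of Dscc1 and Mtbp were called in 12 of 12 cases, led by Mcm2, with a peak at 12.7 h and an amplitude of 0.68, and Mcm5, with a peak at 13.0 h and an amplitude of 0.66 (adjusted p = 1.48e-17 and 4.3e-15 in edgeR). These hours lie beside those of Dscc1, 13.5 h, and Mtbp, 13.4 h. All 7 SMC5/6 partners of Nsmce2 were called, with Nsmce3 peaking at 14.996 h and Slf1 at 13.8 h. Nsmce2 itself narrowly missed a call for time (adjusted p = 0.0683 in edgeR). With terms for sex-linked expression Nsmce2 was called. Of 12 cohesin partners of Rad21, 8 were called, and Esco2 peaked at 20.6 h and Cdca5 at 20.9 h. For comparison, time was called in 19 of 19 core clock genes, with an amplitude of 0.97 for Bmal1, above that of any of the 34 with a called rhythm. Counts for the other lists were 9 of 12 for eIF3, 10 of 28 for Mediator, 8 of 13 for TFIID, 8 of 15 for heparan sulfate, 4 of 10 for hyaluronan, 4 of 10 for autotaxin and 2 of 4 for osteoprotegerin. They were 5 of 11 for the MAL family, 6 of 14 for ER degradation, 4 of 10 for mTOR, 5 of 10 for WASH, 4 of 7 for I-BAR proteins, 3 of 5 for the pseudokinase list, 4 of 6 for atrogin and 8 of 19 for the mitochondrial ribosome.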

How the data were processed

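The authors deposited 1 table of raw counts per gene, keyed by Entrez ID and not normalised. Reads were handled with featureCounts, STAR 2.7.10a and Trim Galore on GRCm38 (mm10), per the submitters' processing notes, with settings not given in the sources. Symbols and positions came from a RefSeq table (25275 of 27179 IDs named, and the rest held 4.65% of counts). In edgeR 4.0.16, counts were scaled by TMM and filtered by filterByExpr over the 12 groups, which kept 17068 genes. All 48 libraries entered glmQLFit (robust) with 12 group means, and a second model held the label and a cosine and sine of period 24 h within each label. Tests were glmQLFTest, with Benjamini-Hochberg adjustment over all genes tested and calls under 0.05. The models were checked on simulated counts. CPM levels are TMM-scaled.

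The 34 genes and all lists were chosen with earlier results of these data known. Every one of the 34 is named. Full ranges are given for genes called between the labels, the first 4 by p for time and for rhythm get their times and amplitudes, and both nearest neighbours of Col14a1 get ranges. From each partner list up to 2 called genes of smallest p, or else the most abundant, are named. Tnfrsf11b and other genes named beyond this were picked with their values in view. Alternatives were RLE, DESeq2 1.42.0, limma-voom 3.58.1, 2 other filters, a replicate block, terms for Xist and Y-linked genes or dermal markers, and libraries left out. The labels call the 4 libraries of a group biological replicates, and no pair of replicates agreed within sampling noise (72 pairs).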

Additional observations from a re-analysis of the deposited data

Results flagged for a closer look

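In groups of 4 libraries, a library was singled out where its gap to the nearest of the others took up most of the group's range (Dixon's test at the 95% level). Of 132 groups checked over 11 genes, 7 were singled out. For continuous values chance gives about 1 in 20, or 6.6, but that rate does not hold for counts near 0. Slc22a22 was at 0.0261 CPM in KO replicate 1 at ZT16 and 0.0254 CPM in KO replicate 1 at ZT20. Each was a single count beside 0 in the other 3, which this rule always singles out. Mtss1 was at 59.1 CPM in KO replicate 2 at ZT20, beside 47.9 to 49.1 CPM. Washc5 was at 40.1 CPM in WT replicate 1 at ZT0, beside 36.8 to 36.9 CPM. Col14a1 was at 61.2 CPM in KO replicate 2 at ZT12, beside 52.6 to 53.8 CPM, at 72.3 CPM in KO replicate 2 at ZT16, beside 56.7 to 58.1 CPM, and at 2.47 CPM in WT replicate 3 at ZT4, beside 0.397 to 0.719 CPM.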

How the results depend on the processing

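Over 9 alternatives the number of the 34 genes called between the labels was 4 to 6, for time of day 16 to 21 and for rhythm 10 to 16, and the 5 genes called between the labels kept their direction over all 6 times together. Signs near 0 turned for Enpp2 (-0.19), Eif3h (-0.07) and Utp23 (0.0017) under the sex-linked terms and for Enpp2 (-0.13) and Eif3h (-0.0095) under the term for fibroblast and dermis markers. A count of 4 came with a filter of 1 CPM in 24 libraries, which left Slc22a22 untested, and the 6th gene was Tnfrsf11b. Calls at single times, 7 in all, became 3 under that filter, 3 without the 3 WT libraries, 10 with terms for sex-linked expression and 5 to 9 with each library left out, an alternative chosen after seeing the data. Partner genes called between the labels, 0 in all libraries, went to 2 with terms for sex-linked expression and were 0 to 1 with each library left out. Leaving out each of the 48 libraries gave 5 to 6 calls between the labels, 15 to 21 for time and 10 to 14 for rhythm. With the replicate number as a block, the counts were 6, 17 and 13, and 6 at single times. The numbers were not taken as pairs: mean correlations of KO and WT libraries with the same number and time were 0.336 and 0.194 for replicates 1 and 2 but -0.0561 and -0.0309 for replicates 3 and 4. Of 48 libraries 22 lay closest to their own number, so some sharing by number is possible. Over all genes, calls between the labels were 58, and 130 with terms for sex-linked expression. For Slc22a22, counts of 0 to 3 a KO library limit what can be said at single times.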

Other observations

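Several of the 34 genes took different levels in the 24 libraries with high Xist and the 24 with low Xist, under both labels. Deptor, the mTOR inhibitor, averaged 15.1 ± 2.98 CPM in the 9 KO libraries with high Xist and 8.83 ± 1.98 CPM in the 15 KO libraries with low Xist, and 15.5 ± 3.49 CPM in the 15 WT libraries with high Xist and 9.62 ± 1.44 CPM in the 9 WT libraries with low Xist. Fbxo32 averaged 149 ± 22.4 CPM and Fam83a 4.52 ± 1.05 CPM in KO libraries with high Xist, against 114 ± 16.3 CPM for Fbxo32 and 3.16 ± 0.524 CPM for Fam83a in KO libraries with low Xist. Eif3h went the other way, with 220 ± 16.1 CPM in KO libraries with high Xist and 255 ± 23.3 CPM in those with low Xist, and 222 ± 21.8 CPM in WT libraries with high Xist and 270 ± 24.6 CPM in those with low Xist. These library sets were formed from the data and the values are given without a test. Within each set the log2 ratio of means for Deptor, KO over WT, was -0.04 with high Xist and -0.12 with low Xist.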
